A study of Homo sapiens with 6 samples.

Results

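The replication-dependent histone genes encode the linker histone H1 and the core histones H2A, H2B, H3 and H4, the proteins around which newly copied DNA is wrapped. In human cells most of them lie in a large cluster on chromosome 6 (HIST1) and a smaller one on chromosome 1 (HIST2), with a few copies elsewhere (HIST3 and HIST4). They are transcribed mainly in S phase, when DNA is replicated, and their mRNAs are unusual in ending at a short stem-loop instead of a poly(A) tail. The stem-loop is bound by the protein SLBP, and the U7 small nuclear ribonucleoprotein directs the cut behind it. Some of these genes also give longer or spliced mRNAs that end at a downstream polyadenylation signal.

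The members were selected on measured values, namely all gene rows with a symbol starting HIST1H to HIST4H that held at least 10 counts summed over the 6 libraries. This gave 60 rows of 56305 in each count set, 55 genes and 5 rows whose symbol or annotation marks a pseudogene. They comprised 6 H1, 14 H2A, 18 H2B, 9 H3 and 13 H4 rows, of which 44 lay on chromosome 6, 15 on chromosome 1 and 1 on chromosome 12. The other 29 of 89 histone rows were left out, 22 with no count in any library and 7 with 2 to 8 counts. The 22 rows with no count included 11 that are not pseudogenes, and a count of 0 over the 6 libraries allows up to 3 counts, or 0.00322 CPM (counts scaled to a library of 1000000). This floor need not hold for HIST1H2AD, HIST1H2AM and HIST1H3D, where 88.0% to 100% of exon bases overlap another annotated gene. Reads on 2 genes may have been tallied as ambiguous and counted for neither. Just outside the limit were HIST1H1A, HIST1H2BPS3 and HIST1H3E with 8 summed counts each, and just inside were HIST3H2BB with 21 and HIST1H1T with 22.

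The libraries came from MOLM13 cells, a human acute myeloid leukemia line that carries an FLT3 internal tandem duplication. The cells had been treated for 24 h with DMSO, the solvent control, or with 1 μM ZW27941, a compound that degrades the protein METTL3, the enzyme that writes N6-methyladenosine on mRNA. There were 3 libraries in each group, all from this 1 line, and the labels do not say whether they came from separate cultures, so the p-values measure the spread between these libraries, which may be technical. The DMSO libraries held 143454176 to 153825333 counts on genes and the ZW27941 libraries 143621822 to 178744976. Genes of the myeloid lineage summed to 2052 to 2348 CPM per library, and those of T cells to 0.139 to 0.332 CPM. Marker genes of B cells summed to 1.63 to 2.26 CPM and those of fibroblasts to 3.03 to 3.53 CPM. Those of epithelium summed to 9.80 to 12.8 CPM, nearly all from KRT18. How the RNA was selected for the libraries (poly(A) capture or removal of ribosomal RNA) is not given in the sources used here. ZW27941 replicate 3 stood apart from the other 5 libraries for many of the histone genes, so the results below are given with and without it.

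The stem-loops are shown first, since they set these mRNAs apart from all others. A stem-loop of 16 bases, with a stem of 6 base pairs and a loop of 4 bases, was found behind the stop codon, or in the exons of a pseudogene, in the GENCODE 29 gene models of 30 of the 60 members. It occurred in 5 forms. Form 1 was present in 16 members (6 H2A, 7 H2B and 3 H3), form 2 in 5 H4 genes, form 3 in 3 H4 genes, form 4 in 3 H2B genes, and form 5, with a G·T pair in the stem, in 1 H2A gene and 2 H2B rows. An example of each form follows, from form 1 to form 5, as DNA read 5′ to 3′ along the mRNA strand with the stem-loop in capitals.
HIST1H2AC: caaaGGCTCTTTTCAGAGCCcccctaccgt
HIST1H4H: caaaGGCCCTTTTCAGGGCCgcccactttt
HIST2H4A: caaaGGCCCTTTTTAGGGCCgaccacttgc
HIST1H2BD: caaaGGCTCTTTTAAGAGCCacgcatgttt
HIST1H2AG: caacGGCTCTTTTCAGGGCCacccacgtct

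In GRCh38 these stretches lie at chr6:26124665-26124694 (plus strand), chr6:26285121-26285150 (minus strand), chr1:149833028-149833057 (plus strand), chr6:26158583-26158612 (plus strand) and chr6:27133511-27133540 (plus strand). The models of 27 further members stop at or near the end of the coding sequence, or belong to pseudogenes, and hold no stem-loop, so reads past the stop codon of such a gene may not have been counted if a similar annotation was used. Of the 33 others, 7 had models that end at the stem-loop and 26 had a model that is spliced, runs more than 100 bases past the stem-loop, or both. These 26 members took 72.7% of all member counts.

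Transcription of these genes depends on short promoter elements, among them the TATA box, the CCAAT box and, in H2B genes above all, the octamer bound by OCT1 (POU2F1). RefSeq promoters (GRCh38.p14) were matched for 50 of the 60 members and searched on both strands over the 250 bases before the start. TATAAA was held by 35 of the 50 (70.0%), against 11.1% of all 27305 promoters. CCAAT was held by 41 (82.0%), against 33.0% of all promoters, and it was present in all 39 promoters of H1, H2A, H2B and H3 genes but in 2 of 11 H4 promoters. The octamer ATTTGCAT was held by 19 (38.0%), against 1.66% of all promoters, with 8 of 13 H2A and 11 of 15 H2B promoters and none of the H1, H3 and H4 promoters. An H2B, an H3 and an H4 promoter of genes that were higher on ZW27941 are given to show this difference, each as the 150 bases before the start with the 3 motifs in capitals on either strand.
HIST1H2BK: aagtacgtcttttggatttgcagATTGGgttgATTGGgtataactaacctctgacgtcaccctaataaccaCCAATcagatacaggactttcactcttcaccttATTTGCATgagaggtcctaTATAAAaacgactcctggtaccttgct
HIST1H3B: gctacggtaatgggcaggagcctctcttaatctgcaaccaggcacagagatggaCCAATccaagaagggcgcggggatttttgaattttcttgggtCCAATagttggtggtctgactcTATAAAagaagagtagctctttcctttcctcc
HIST1H4H: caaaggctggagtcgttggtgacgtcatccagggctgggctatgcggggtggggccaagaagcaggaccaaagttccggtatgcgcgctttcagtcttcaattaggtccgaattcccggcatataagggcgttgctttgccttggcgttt

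They lie at chr6:27146859-27147008, chr6:26032100-26032249 and chr6:26285535-26285684, all on the minus strand. The H4 promoter holds none of the 3 exact motifs in these 150 bases, which says only that those letters are not in this window.

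Counts were scaled to CPM with TMM factors, and edgeR's quasi-likelihood test was run on all 20399 genes that passed its expression filter, with Benjamini-Hochberg adjustment and a threshold of 0.05. A member past this threshold is called higher or lower. Of the 60 members, 45 passed the filter. Of these 15 were higher on ZW27941 and 1 was lower, where 16.3% of all genes tested were higher and 13.8% lower. HIST1H3I, 1 of the 15, passed the filter only through its ZW27941 libraries, so its call adds no support to this count. Since the members had been selected on their summed counts over both groups, the counts of calls describe these rows. The median log2 fold change was 0.28 over the 45 tested members and 0.00 over all genes tested. Without ZW27941 replicate 3, 8 members were higher and 2 lower, where the shares of all genes were 15.6% and 13.8%, and 8 of the 16 called members were called again. The median log2 fold change of the tested members was then 0.16.

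Of the 16 called members, 6 were called with each of the 6 libraries left out in turn, HIST1H2BD, HIST1H2BK, HIST1H2BO, HIST2H2BF, HIST1H3B and HIST1H3I. Among these, HIST1H3I passed the expression filter only through its ZW27941 libraries. The other 10 each lost their call without at least 2 of the libraries in turn. The call was lost without DMSO replicate 1 for HIST1H1B, HIST1H1C, HIST1H2BC, HIST1H2BN and HIST1H3J, and without DMSO replicate 2 for HIST1H1B, HIST1H1E, HIST1H2AG, HIST1H2BC, HIST1H2BN, HIST1H3H, HIST1H3J and HIST1H4H. It was lost without DMSO replicate 3 for HIST1H1C, HIST1H2AG, HIST1H3H, HIST1H3J and HIST2H2AA3. Leaving out ZW27941 replicate 1 lost HIST1H2AG, HIST1H2BC and HIST1H4H, and leaving out ZW27941 replicate 2 lost HIST1H1C, HIST1H2AG, HIST1H2BN, HIST1H4H and HIST2H2AA3. With DESeq2's Wald test on all 6 libraries, 8 of the 16 were called again. Those not called were HIST1H1B, HIST1H1E, HIST1H2BC, HIST1H2BN, HIST1H3H, HIST1H3J, HIST1H4H and HIST2H2AA3.

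The groups did not overlap for 14 of the 45 tested members. In 12 of them every ZW27941 library lay above every DMSO library, as in 21.7% of all genes tested, and in 2 every ZW27941 library lay below, as in 19.9%. Of the 16 called members, 13 had groups that did not overlap, and HIST1H1B, HIST1H1E and HIST1H3H had groups that did. At a log2 fold change over 1 with an unadjusted p under 0.05 and no expression filter, 12 of the 60 members were higher and none was lower, whereas 0.89% of 34702 genes with a count were higher. ZW27941 replicate 3 was the highest library for 11 of these 12.

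**Figure D1:**
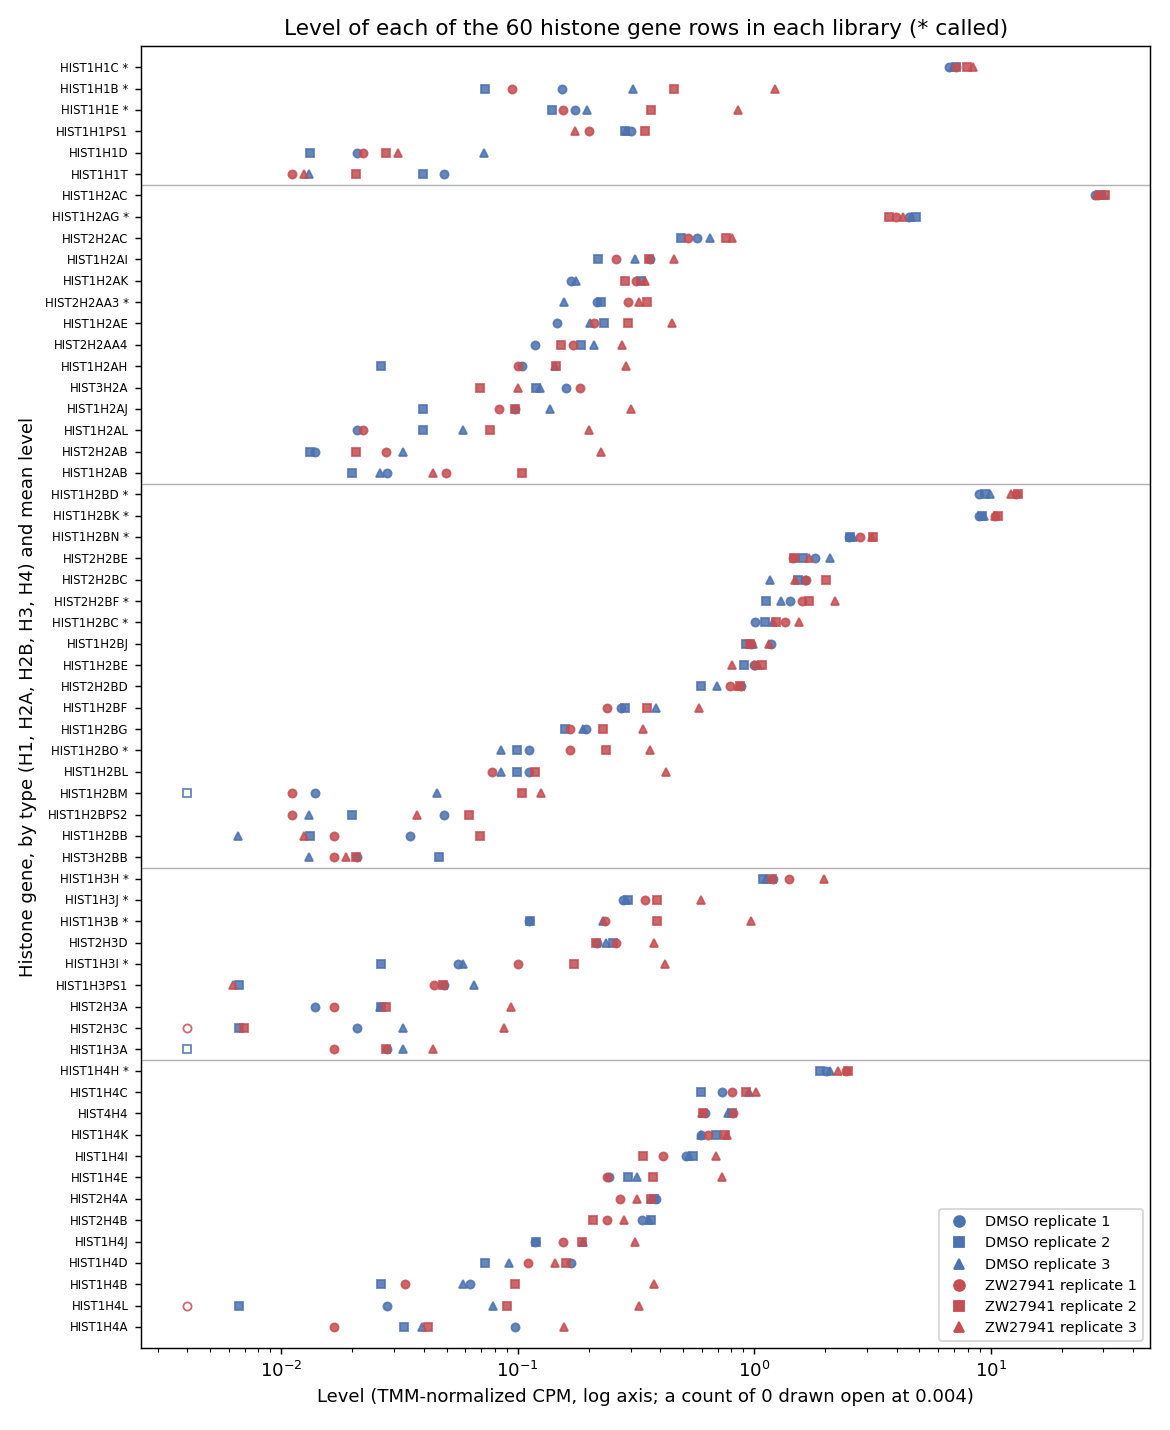
Level of each of the 60 histone gene rows in each library, in TMM-normalized CPM on a log axis, ordered by type and then by mean level. Blue points are DMSO and red points ZW27941 libraries, with circles, squares and triangles for replicates 1, 2 and 3, and an asterisk marks a member called in the test. The abundant members at the right of each block have tight points, and among the rarer ones the red triangle of ZW27941 replicate 3 is often farthest to the right.

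The summed level of the 60 members was 79.6, 80.9 and 84.5 CPM in the DMSO libraries and 86.7, 92.6 and 96.9 CPM in the ZW27941 libraries. The groups did not overlap. The means were 81.7 ± 2.55 and 92.1 ± 5.13 CPM (SD, n = 3), a log2 ratio of 0.17 that was 0.13 without ZW27941 replicate 3. In bulk RNA, more cells in S phase and more histone RNA per S phase cell cannot be told apart.

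A few genes carried most of this sum. HIST1H2AC, an H2A gene on chromosome 6, took 33.3% of the member counts, and together with HIST1H2BD, HIST1H2BK and HIST1H1C it took 66.0%. HIST1H2AC stood at 27.7, 29.1 and 30.04 CPM on DMSO and at 28.6, 30.3 and 28.1 CPM on ZW27941. The groups overlapped fully, with a log2 fold change of 0.00 ± 0.04 (SE). Without HIST1H2AC the log2 ratio of the summed level was 0.26. Per kilobase of GENCODE exon, HIST1H2BK stood at 24.1 CPM per kb on DMSO, HIST1H2AC at 17.4, and HIST1H2BD and HIST1H1C at 10.8 each. No order is read from these values, since the HIST1H2BK model is 381 bases of coding sequence, that of HIST1H2AC joins 3 transcripts over 1668 bases, and the annotation behind the counts is not known.

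H1 is the linker histone, which binds where DNA enters and leaves the nucleosome. Its 6 members summed to 7.35, 7.70 and 7.81 CPM on DMSO and to 7.64, 9.18 and 10.7 CPM on ZW27941. The groups overlapped, and the spread of the ZW27941 libraries (SD 1.53 CPM) was larger than that of the DMSO libraries (0.241 CPM). Of 4 tested members 3 were higher, and without ZW27941 replicate 3 none was. The counts for this and each later type stand beside 16.3% higher and 13.8% lower over all genes tested. Without replicate 3 those shares were 15.6% and 13.8%. HIST1H1C, the most abundant H1 gene here, stood at 6.65, 7.15 and 6.93 CPM on DMSO and at 7.16, 7.96 and 8.41 CPM on ZW27941, a log2 fold change of 0.18 ± 0.06 (adjusted p = 0.034). All 3 ZW27941 libraries lay above the DMSO libraries, the first of them by little. Without replicate 3 its log2 fold change was 0.12 (adjusted p = 0.124).

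HIST1H1B stood at 0.154, 0.0729 and 0.307 CPM on DMSO and at 0.0943, 0.458 and 1.22 CPM on ZW27941, which are 22, 11 and 47 counts against 17, 66 and 195. The groups overlapped, with ZW27941 replicate 1 below 2 of the DMSO libraries and replicate 3 far above all others. Its log2 fold change was 1.71 ± 0.54 (adjusted p = 0.0195), and 0.57 without replicate 3 (adjusted p = 0.369). HIST1H1E showed the same layout, with 0.174, 0.139 and 0.196 CPM on DMSO and 0.155, 0.368 and 0.857 CPM on ZW27941. Its log2 fold change of 1.42 ± 0.40 (adjusted p = 0.0097) was 0.58 without replicate 3 (adjusted p = 0.213). The low tested H1 pseudogene HIST1H1PS1 was not called, at -0.29 ± 0.26.

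H2A pairs with H2B in the nucleosome core. The 14 H2A members summed to 34.3, 35.9 and 36.9 CPM on DMSO and to 34.8, 36.8 and 36.2 CPM on ZW27941, a log2 ratio of 0.01 with overlapping groups. This sum was largely HIST1H2AC. Of 11 tested members 1 was higher and 1 was lower. HIST1H2AG was the member that fell, from 4.49, 4.83 and 4.60 CPM on DMSO to 3.99, 3.72 and 4.28 CPM on ZW27941. Each ZW27941 library lay below each DMSO library, and the log2 fold change was -0.21 ± 0.07 (adjusted p = 0.0265), or -0.27 without replicate 3 (adjusted p = 0.0047). It was not called in the fits that left out DMSO replicate 2, DMSO replicate 3, ZW27941 replicate 1 or ZW27941 replicate 2.

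HIST2H2AA3 rose from 0.216, 0.225 and 0.157 CPM to 0.294, 0.354 and 0.325 CPM, with no overlap and a log2 fold change of 0.70 ± 0.24 (adjusted p = 0.033). Its log2 fold change was 0.69 without replicate 3, where the adjusted p was 0.0673. Its near-identical neighbour HIST2H2AA4 stood at 0.119, 0.186 and 0.209 CPM against 0.172, 0.153 and 0.275 CPM and was not called. All 150-base windows of HIST2H2AA3 and 96.4% of those of HIST2H2AA4 occur in another histone gene. Reads aligned to several places were tallied apart, so both levels may be too low and the split between the 2 copies is uncertain. HIST1H2AL, at 0.0209, 0.0398 and 0.0589 CPM against 0.0222, 0.0763 and 0.200 CPM, and HIST2H2AB, at 0.0140, 0.0133 and 0.0327 CPM against 0.0277, 0.0208 and 0.225 CPM, were too low for the expression filter. In both, ZW27941 replicate 3 alone stood far above the DMSO libraries. The H2A members that were tested and not called ranged up to 0.94 on the log2 scale (HIST1H2AH, at 0.105, 0.0265 and 0.144 CPM against 0.0998, 0.146 and 0.288 CPM).

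H2B, the partner of H2A, was the type with the most calls and also with the most tested members. A larger part of the tested members was called higher in H3 (4 of 5) and H1 (3 of 4). The 18 H2B members summed to 30.1, 29.7 and 31.3 CPM on DMSO and to 35.6, 37.5 and 37.4 CPM on ZW27941. The groups were well apart, with means of 30.4 ± 0.833 and 36.9 ± 1.06 CPM (SD, n = 3), and the log2 ratio of 0.28 was 0.27 without ZW27941 replicate 3. Of 14 tested members 6 were higher, and without replicate 3, 5 were higher and 1 was lower. HIST1H2BD had the lowest p of all members. It rose from 8.90, 9.45 and 9.96 CPM to 12.9, 13.1 and 12.2 CPM, with the 3 ZW27941 libraries close together and well above DMSO. The log2 fold change was 0.43 ± 0.05 (adjusted p = 1.1e-06), and 0.46 without replicate 3.

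HIST1H2BK rose from 8.95, 9.17 and 9.41 CPM to 10.4, 10.7 and 10.5 CPM, a smaller but even shift of 0.20 ± 0.05 on the log2 scale (adjusted p = 0.00258). HIST1H2BN rose from 2.53, 2.55 and 2.62 CPM to 2.81, 3.18 and 3.15 CPM (log2 fold change 0.25 ± 0.08, adjusted p = 0.0257), and HIST2H2BF from 1.42, 1.12 and 1.30 CPM to 1.59, 1.70 and 2.19 CPM (0.51 ± 0.12, adjusted p = 0.00245). In both the groups did not overlap. HIST1H2BN was not called without replicate 3 (0.21, adjusted p = 0.0695), and HIST2H2BF was (0.36, adjusted p = 0.026). The span of HIST1H2BN takes in HIST1H2AL on the same strand and HIST1H2AK and HIST1H2BPS2 on the opposite strand, and 7.25% of its exon bases overlap other genes. HIST1H2BC rose from 1.00, 1.11 and 1.20 CPM to 1.35, 1.23 and 1.55 CPM (0.32 ± 0.11, adjusted p = 0.0404), without overlap, and was not called without replicate 3 (adjusted p = 0.216).

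HIST1H2BO was the rare H2B gene that kept its call without replicate 3. It stood at 16, 15 and 13 counts in the DMSO libraries and at 30, 34 and 58 in the ZW27941 libraries, or 0.112, 0.0995 and 0.0850 CPM against 0.166, 0.236 and 0.363 CPM. Each ZW27941 library was above each DMSO library, with a log2 fold change of 1.36 ± 0.33 (adjusted p = 0.00318), or 1.01 without replicate 3 (adjusted p = 0.0372). HIST1H2BL had the same counts on DMSO (16, 15 and 13) but 14, 17 and 68 on ZW27941. Its log2 fold change of 1.06 ± 0.47 (adjusted p = 0.0963) was -0.03 without replicate 3. HIST1H2BM and HIST1H2AB, the rarest members past the fold limit, which did not pass the expression filter, were past the limits of fold and unadjusted p on 2 to 20 and on 3 to 15 counts per library, apart from a count of 0 for HIST1H2BM in DMSO replicate 2. HIST2H2BE stood at 1.80, 1.61 and 2.09 CPM against 1.46, 1.47 and 1.70 CPM. It was called lower without replicate 3 (log2 fold change -0.33, adjusted p = 0.0343), but its groups overlapped over all 6 libraries. The pseudogene HIST2H2BC, at 1.65, 1.53 and 1.17 CPM against 1.66, 2.02 and 1.48 CPM, was not called over all 6 libraries and was called higher without replicate 3 (0.34, adjusted p = 0.0441).

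**Figure D2:**
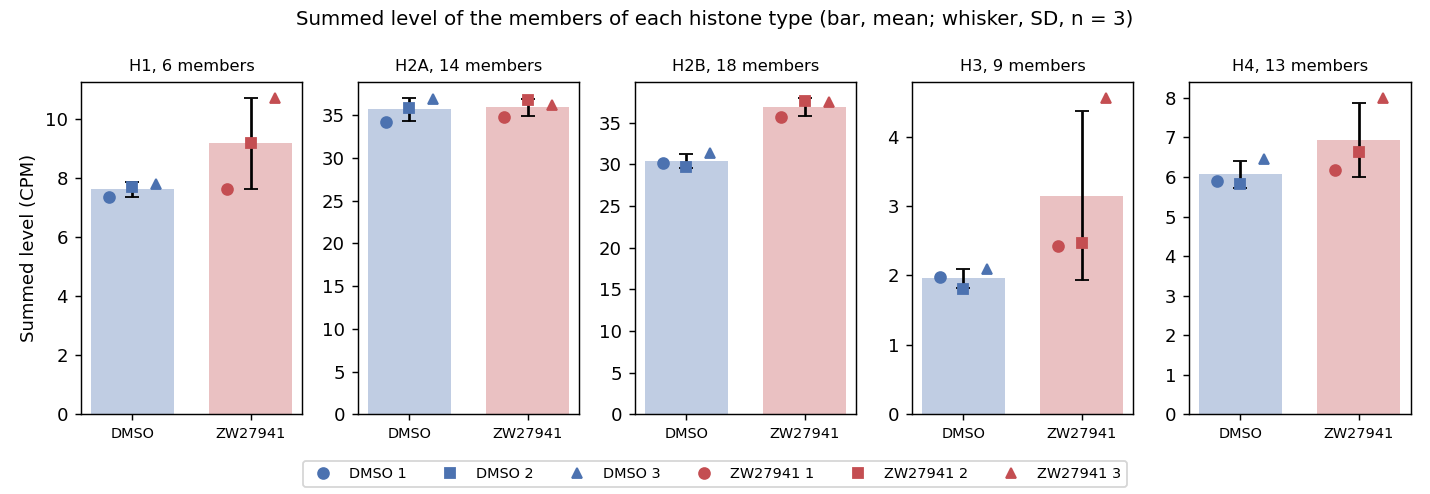
Summed level in CPM of the members of each histone type. Bars are means and whiskers the SD of 3 libraries, points are single libraries, and each panel has its own axis from 0. The H2B panel shows groups that are apart with 3 close ZW27941 libraries (35.6 to 37.5 CPM), whereas in the H1, H3 and H4 panels ZW27941 replicate 3 is above the other 2.

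H3 carries many of the modified residues of chromatin and pairs with H4. It was the type with the largest log2 ratio, 0.69, and its ZW27941 libraries spread widely (SD 1.22 CPM). Its 9 members summed to 1.97, 1.81 and 2.09 CPM on DMSO and to 2.42, 2.47 and 4.55 CPM on ZW27941. All 3 ZW27941 libraries were above the DMSO libraries, and without replicate 3 the log2 ratio was 0.32. Of 5 tested members 4 were higher, and without replicate 3, 2 were. HIST1H3I had the largest log2 fold change of the tested members, 2.27 ± 0.49 (adjusted p = 0.00124). It passed the expression filter only through its ZW27941 libraries, so its call does not support the count of H3 members called higher. It stood at 8, 4 and 9 counts in the DMSO libraries and at 18, 25 and 67 in the ZW27941 libraries, or 0.0558, 0.0265 and 0.0589 CPM against 0.0998, 0.173 and 0.419 CPM. The groups did not overlap, and the log2 fold change was 1.498 without replicate 3 (adjusted p = 0.0196).

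HIST1H3B stood at 0.112, 0.113 and 0.229 CPM on DMSO and at 0.233, 0.388 and 0.970 CPM on ZW27941. The lowest ZW27941 library lay just above the highest DMSO library, and the log2 fold change of 1.79 ± 0.40 (adjusted p = 0.00148) was 1.01 without replicate 3 (adjusted p = 0.0211). HIST1H3H, the most abundant H3 gene, stood at 1.20, 1.09 and 1.12 CPM against 1.40, 1.193 and 1.96 CPM. Its groups overlapped slightly (log2 fold change 0.42 ± 0.14, adjusted p = 0.0237), and it was not called without replicate 3 (0.20, adjusted p = 0.281). HIST1H3J stood at 0.279, 0.292 and 0.288 CPM against 0.344, 0.388 and 0.594 CPM (0.62 ± 0.22, adjusted p = 0.0369), without overlap, and was not called without replicate 3 (0.35, adjusted p = 0.311). Of its exon bases 44.6% overlap HIST1H2AM, which held no count. Reads on the shared bases may have been tallied as ambiguous and counted for neither gene.

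H4 is the partner of H3 in the nucleosome core. The 13 H4 members summed to 5.91, 5.83 and 6.46 CPM on DMSO and to 6.17, 6.64 and 7.99 CPM on ZW27941, with overlapping groups and a log2 ratio of 0.19 that was 0.08 without replicate 3. Of 11 tested members 1 was higher. This was HIST1H4H, the most abundant H4 gene, which rose from 2.01, 1.89 and 2.09 CPM to 2.44, 2.49 and 2.27 CPM, with no overlap, a log2 fold change of 0.27 ± 0.09 (adjusted p = 0.0234) and 0.30 without replicate 3 (adjusted p = 0.0175). It was not called without DMSO replicate 2, ZW27941 replicate 1 or ZW27941 replicate 2, nor with DESeq2. HIST1H4C, the next most abundant, stood at 0.733, 0.597 and 0.955 CPM against 0.804, 0.922 and 1.02 CPM. It was not called (0.26 ± 0.15), and its DMSO libraries alone spread more widely than the difference between the group means.

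Some of the low H4 genes followed ZW27941 replicate 3, which was the highest library for 8 of the 13 H4 members. HIST1H4D did not, with 24, 11 and 14 counts on DMSO against 20, 23 and 23 on ZW27941. HIST1H4B held 9, 4 and 9 counts against 6, 14 and 60, and HIST1H4L held 4, 1 and 12 against 0, 13 and 52. In both, the first 2 ZW27941 libraries lay within or near the DMSO range. HIST1H4L, the only one of the 2 that was tested, had a log2 fold change of 1.82 ± 0.82 (adjusted p = 0.0989), or 0.11 without replicate 3. In the opposite direction, HIST2H4A and HIST2H4B, near-identical copies on chromosome 1, together stood at 0.719, 0.743 and 0.726 CPM on DMSO and at 0.510, 0.576 and 0.601 CPM on ZW27941. The groups did not overlap, although neither copy was called on its own.

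The 15 members that were not tested held 21 to 102 summed counts. They were 2 H1, 3 H2A, 4 H2B, 4 H3 and 2 H4 rows, among them 2 pseudogenes. Both identical H3 copies of HIST2 were in this set. HIST2H3A held 2, 4 and 4 counts on DMSO and 3, 4 and 15 on ZW27941, and HIST2H3C held 3, 1 and 5 against 0, 1 and 14. Every 150-base window of either gene occurs in another histone gene, so both may be undercounted and their split is uncertain. In both, ZW27941 replicate 3 held more counts than any other library.

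**Figure D3:**
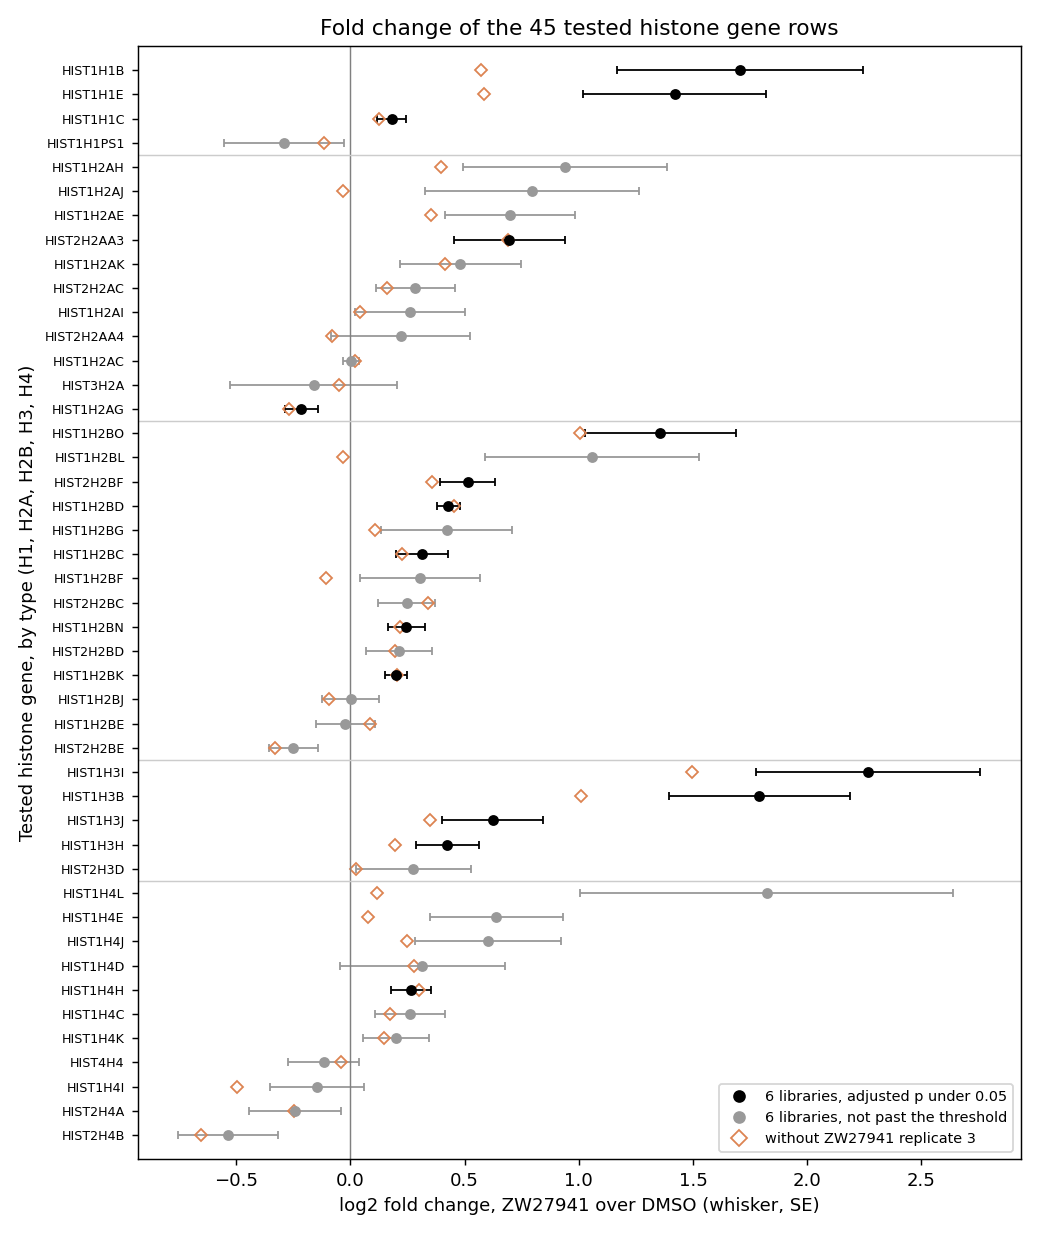
Log2 fold change of ZW27941 over DMSO for the 45 tested members, by type, with the SE as whiskers. Black points are past an adjusted p of 0.05 and grey points are not, and open diamonds give the value without ZW27941 replicate 3. The abundant H2B genes HIST1H2BD and HIST1H2BK keep their place (0.46 and 0.20), while HIST1H1B moves from 1.71 to 0.57 and HIST1H2BL from 1.06 to -0.03.

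By cluster, the 44 members of HIST1 summed to 71.2, 73.2 and 76.3 CPM on DMSO and to 78.4, 83.7 and 87.2 CPM on ZW27941, with no overlap and a log2 ratio of 0.18 that was 0.14 without replicate 3. Of 33 tested HIST1 members 13 were higher and 1 was lower, and without replicate 3, 6 were higher and 1 was lower. For each cluster these counts stand beside 16.3% higher and 13.8% lower over all genes tested, or 15.6% and 13.8% without replicate 3. The 13 members of HIST2 summed to 7.63, 6.80 and 7.33 CPM against 7.31, 8.18 and 9.01 CPM, with overlapping groups and a log2 ratio of 0.17 that was 0.09 without replicate 3. Of 10 tested HIST2 members 2 were higher, HIST2H2BF and HIST2H2AA3, and without replicate 3, HIST2H2BF and HIST2H2BC were higher and HIST2H2BE was lower. The 2 HIST3 members and the HIST4 member were not called, with log2 ratios of -0.25 and -0.12 (-0.16 and -0.05 without replicate 3) and overlapping groups.

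Within HIST1 the members lie in 3 blocks on chromosome 6 parted by gaps of more than 300000 bases, a split made after the values had been seen. The first block, chr6:26020490-26322292, held 23 members and summed to 52.1 ± 2.21 CPM on DMSO and 58.4 ± 2.19 CPM on ZW27941, a log2 ratio of 0.16 that was 0.15 without replicate 3. The second, chr6:27125897-27147515, held 5 members and had a log2 ratio of 0.07. The third, chr6:27807444-27893843, held 16 members that summed to 5.89, 5.70 and 6.17 CPM on DMSO and to 6.49, 7.76 and 11.0 CPM on ZW27941. This block, which contains HIST1H1B, HIST1H3I, HIST1H2BO and HIST1H4L, had a log2 ratio of 0.51, or 0.27 without replicate 3.

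Most H2A and H2B genes are arranged head to head and share the DNA between their starts. With starts taken as the outermost ends of the GENCODE models, 12 such pairs of members had starts less than 1000 bases apart. Of these, 11 were an H2A with an H2B row. This rule missed HIST1H2AK (not called) and HIST1H2BN (called higher), whose RefSeq promoters overlap on opposite strands. The mean levels of the partners differed by 1.20 to 73.2 times. Of the 9 pairs with both partners tested, both were called higher in 1 (HIST1H3J and HIST1H2BO), 1 partner was called in 4, and neither in 4. The HIST1H3J end used for that pair lies within HIST1H2AM, a gene with no count whose start is nearer to HIST1H2BO. Whether HIST1H3J and HIST1H2BO are a head-to-head pair is thus uncertain. In the pair with the most counts, HIST1H2AC and HIST1H2BC, whose starts lie 219 bases apart, the log2 fold changes were 0.00 and 0.32. HIST1H2BJ and HIST1H2AG, 292 bases apart, stood at 0.00 and -0.21, and of these the second was called lower.

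The spread between replicates depended on the count. The median coefficient of variation of the 45 tested members was 13.5% among the DMSO libraries and 21.5% among the ZW27941 libraries, against 4.14% and 4.47% over all genes tested. For the 18 members with a mean of at least 100 counts it was 7.89% and 9.46%. For the 27 tested members below that mean it was 18.6% and 38.4%, whereas all genes below that mean had 20.7% in both groups. The low members thus spread about as much as other low genes on DMSO and more on ZW27941. For HIST1H1B the coefficient was 67.0% on DMSO and 97.3% on ZW27941, where counting error alone gives 19.4% and 10.4%. For HIST1H2BK it was 2.51% and 1.56%, where counting error gives 2.70% and 2.42%.

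ZW27941 replicate 3 was the highest library for 27 of the 45 tested members (60%), against 18.1% of all genes tested. It was the highest for 21 of the 27 tested members with a mean under 100 counts (77.8%), against 14.5% of all genes in that range, and for 6 of the 18 more abundant members. The 42 members with a mean under 100 counts summed to 6.24, 5.78 and 6.93 CPM on DMSO and to 5.92, 8.27 and 13.9 CPM on ZW27941, so that the log2 ratio was 0.57 with replicate 3 and 0.17 without it. The 18 abundant members, which took 91.0% of the counts, summed to 73.3, 75.1 and 77.6 CPM and to 80.8, 84.3 and 83.0 CPM. Their groups did not overlap, with log2 ratios of 0.13 both with and without replicate 3.

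The same contrast appeared by the annotated end. The 7 members whose models end at the stem-loop had a log2 ratio of 0.64, or 0.26 without replicate 3, and the 27 with no stem-loop in the model had 0.31 and 0.21. The 26 members with a longer or spliced model had 0.11 both ways. End class and abundance were partly tied. Of the 18 members with a mean of at least 100 counts, 14 had a longer or spliced model. None of the 18 had a model that ends at the stem-loop. Among tested members under that mean, log2 fold changes ran from -0.54 to 0.64 with a longer or spliced model. With the other models they ran from 0.22 to 2.27 (HIST1H3I, which passed the filter only through its ZW27941 libraries). Without replicate 3 these ranges were -0.66 to 0.35 and -0.08 to 1.498. Whether end class matters apart from abundance was not tested.

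Other RNAs that normally lack a poly(A) tail were set beside these values. Of 15 such RNAs 7 were tested, 3 higher and 2 lower, and without replicate 3 none was higher and 2 were lower. The shares of all genes tested were 16.3% higher and 13.8% lower. SNORD3A, the U3 small nucleolar RNA, stood at 1.53, 0.855 and 2.30 CPM on DMSO and at 1.21, 3.30 and 12.6 CPM on ZW27941, with a log2 fold change of 1.86 ± 0.48 (adjusted p = 0.00507) that was 0.50 without replicate 3 (adjusted p = 0.135). RMRP stood at 1.47, 0.345 and 2.32 CPM against 0.749, 3.07 and 11.8 CPM, and RPPH1 at 3.04, 1.17 and 4.62 CPM against 1.75, 6.02 and 21.2 CPM. These 2, the RNA parts of RNase MRP and RNase P, were chosen after their values had been seen. All 3 RNAs put the 6 libraries in the same order, with DMSO replicate 2 lowest, then ZW27941 replicate 1, DMSO replicates 1 and 3 and ZW27941 replicates 2 and 3.

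HIST1H1B, HIST1H1E, HIST1H2AH and HIST2H2AC put the libraries in exactly that order too, 4 of 45 tested members against 0.118% of all genes tested. ZW27941 replicate 3 was highest and replicate 2 second in 16 of the 45 tested members, against 5.96% of all genes tested. The 7SL RNAs did not follow it. RN7SL1 stood at 53.7, 75.7 and 59.4 CPM against 33.8, 24.3 and 67.9 CPM, and RN7SL2 at 49.4, 81.2 and 66.2 CPM against 43.3, 22.0 and 37.3 CPM, both called lower. ZW27941 replicate 3 also had the largest share of reads aligned to several places, 5.25% against 3.63% to 4.07% in the other libraries. The part of these differences between libraries in the histone values was not tested.

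**Figure D4:**
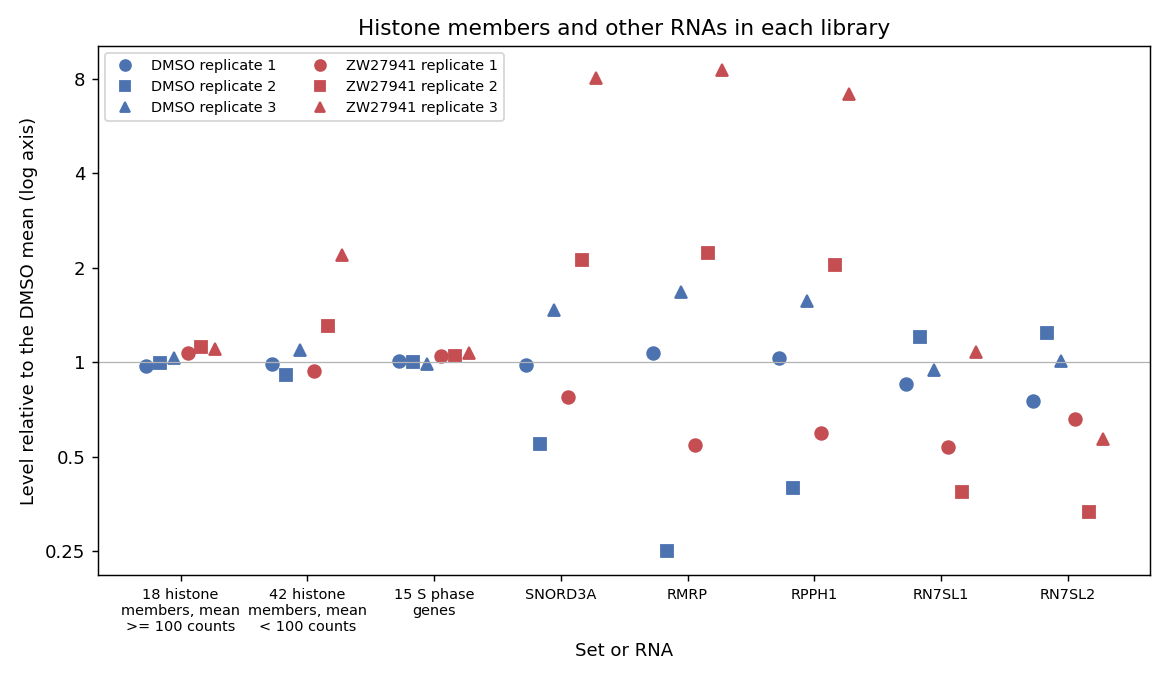
Level in each library divided by the mean of the DMSO libraries, on a log axis, for the summed abundant and rare histone members, the summed S phase genes and 5 RNAs that lack a poly(A) tail. Each column holds the 6 libraries, DMSO in blue and ZW27941 in red. In ZW27941 replicate 3 the rare histone members stand at 2.21 and SNORD3A, RMRP and RPPH1 at 7.18 to 8.54, while the abundant members (1.10) and the S phase genes (1.07) stay near 1.

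A list of genes that are also transcribed in S phase, but have polyadenylated mRNAs, was set beside the members. Of these 15 genes 8 were higher and 1 was lower, with a median log2 fold change of 0.06, and without replicate 3, 6 were higher and 2 lower. Of all genes tested 16.3% were higher and 13.8% lower, and of those with a mean of at least 100 counts 21.7% and 17.3%. TK1, thymidine kinase, rose from 74.5, 78.0 and 77.1 CPM to 91.8, 90.7 and 95.2 CPM (log2 fold change 0.28 ± 0.03), and MCM3, a subunit of the replicative helicase, from 339, 337 and 329 CPM to 391, 394 and 399 CPM (0.24 ± 0.02). MCM4, the most abundant of the list, rose by 0.09 ± 0.02. ZW27941 replicate 3 was the highest library for 12 of the 15, although in these genes by a small margin.

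The genes for the machinery that makes and removes histone mRNA were counted too. Their counts stand beside 16.3% higher and 13.8% lower over all genes tested, or 21.7% and 17.3% at a mean of at least 100 counts. Of 7 genes for histone gene transcription, CDK2, the kinase that acts on NPAT, was higher (0.10 ± 0.03), HINFP, the activator of H4 genes, and POU2F1, which encodes the octamer-binding OCT1, were lower (-0.12 ± 0.03 and -0.08 ± 0.03), and 4 were not called. CASP8AP2 (FLASH), the most abundant of that list, stood at 0.05 ± 0.03. Of 13 tested genes for 3′ end processing 4 were higher and 2 lower. LSM10, a protein of the U7 particle, rose by 0.26 ± 0.04 and CPSF2, part of the cleavage complex, by 0.16 ± 0.03, while SYMPK, the most abundant, stood at -0.02 ± 0.02. SLBP itself was at 80.5, 77.7 and 77.5 CPM against 78.8, 81.1 and 82.1 CPM and was not called. The U7 RNA row (RNU7-1) held no count.

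Of 5 genes for histone mRNA decay 3 were higher and 1 lower. LSM1 rose by 0.16 ± 0.03 and ERI1, the exonuclease that trims the stem-loop end, by 0.18 ± 0.04, and the helicase gene UPF1, the most abundant, stood at 0.02 ± 0.02. Of 18 histone chaperone genes 6 were higher and 2 lower, where 16.3% of all genes tested were higher and 13.8% lower. ASF1B, which carries H3 and H4, rose from 68.7, 70.0 and 68.2 CPM to 84.8, 86.3 and 87.9 CPM (0.32 ± 0.03), DAXX rose by 0.16 ± 0.02, and NAP1L1, the most abundant, fell by 0.08 on the log2 scale.

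The replacement and variant histones, most of which are made outside S phase too and have polyadenylated mRNAs, summed to 1771 to 1811 CPM on DMSO and 1824 to 1895 CPM on ZW27941, many times the sum of the members. Of 10 tested genes 5 were higher and 1 was lower, and without replicate 3, 4 were higher and 3 lower. The shares of all genes tested were 16.3% higher and 13.8% lower, and 15.6% and 13.8% without replicate 3. H1FX, a variant linker histone, rose from 74.6, 73.3 and 74.9 CPM to 96.7, 90.3 and 94.7 CPM (0.34 ± 0.03). H2AFV rose by 0.22 ± 0.02, and H2AFY, which encodes macroH2A and was the most abundant of the list, fell by 0.11 on the log2 scale. The H3 replacement genes H3F3A and H3F3B were not called, at -0.01 and -0.04.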

How the data were processed

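RNA of 3 DMSO and 3 ZW27941 libraries was sequenced in paired reads. The authors deposited raw HTSeq counts per gene symbol, not normalized or filtered. The submitters' processing notes name HISAT2, SAMtools 1.19.2, HTSeq 2.0.3 and hg38, and the annotation, strand setting and RNA selection are not given in the sources used here. Without a known strand setting, reads of overlapping genes on opposite strands may not have been told apart. The 5 tallies of reads on no gene (37.4% to 39.8% of reads) stayed out of library totals. Reads aligned to several places were among these tallies, so near-identical copies may be undercounted. Counts were tested in R 4.3.3 with edgeR 4.0.16 (filterByExpr, TMM, quasi-likelihood test over 20399 genes, Benjamini-Hochberg adjustment). DESeq2 1.42.0, other normalizations, other filters, a replicate block and each library left out were alternatives. The steps were tested on simulated data.

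The members, gene lists, tests and alternatives were chosen with earlier results of these data known. Splits by mean count, annotated end, chromosome block and head-to-head pair were chosen after seeing the data. Genes named were the called members, in each type the 2 members with the highest mean CPM, the 10 members with the most counts among those past a log2 fold change of 1 and an unadjusted p of 0.05 with no filter, in each other list the 2 called genes with the lowest p and the most abundant gene, the rows beside the limit of 10 counts, and others said to be chosen later or given for a pair, a copy or a role. Summed levels had no test. Places and stem-loops came from GENCODE 29 (all 60 members matched) and promoters from RefSeq, matched through Entrez identifiers. Intervals and floors cover counting error only.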

Additional observations from a re-analysis of the deposited data

Results flagged for a closer look

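Signals outside the main comparison were looked at in the tallies of reads on no gene and in the histone rows below the limit. In ZW27941 replicate 3, 5.25% of reads aligned to several places and 18.1% did not align, in both cases above the highest DMSO library (4.07% and 16.6%). The pseudogene row HIST1H2BPS3, below the limit of 10 counts, held 8 counts in the ZW27941 libraries (5, 2 and 1) and none in the DMSO libraries. The groups of 3 libraries were too small for an outlier test.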

How the results depend on the processing

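The number of members called higher, 15 in the reported fit, was 7 with DESeq2's Wald test and 23 with no filter, where the 1 called lower was 0 at the fold limit of 1 with an unadjusted p under 0.05. With a library left out, 8 (without ZW27941 replicate 3) to 22 (without ZW27941 replicate 1) members were higher, and 0 to 2 lower, with 0 without DMSO replicate 3, ZW27941 replicate 1 or ZW27941 replicate 2 and 2 without ZW27941 replicate 3. Over all genes, 6149 were called in either direction in the reported fit, 5433 with DESeq2 and 6112 with no filter. With a library left out, 4836 to 6134 genes were called. The log2 ratio of the summed level, 0.17, was 0.26 without the most abundant member and 0.39 as the mean of log2 levels over members, and 0.57 for the members under a mean of 100 counts alone, a split added after seeing the data. It kept its sign in every alternative run. HIST1H2AC, at 0.00, was at -0.0028 with RLE, -0.0226 with the upper quartile, -0.00049 with DESeq2, -0.00084 with at least 10 counts in each library, and between -0.0326 and 0.0284 with a library left out. UPF1 was at -0.0084 with the upper quartile, and HIST1H2BL between -0.034 and 1.48 with a library left out. The cause was not tested. Same-numbered libraries did not deviate together (correlations of -0.012 to 0.017), so the numbers were not read as pairs, and with the replicate number as a block 17 members were higher and 1 was lower. At this depth, 15 members were too low to be tested.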
